A study of Mus musculus with 2 samples.

Results

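The genes described here form the endoplasmic reticulum (ER) stress response and the ATF4 amino acid response. Of 40 genes named for this module, 38 were found by their gene name among the 27960 gene names on the array, through 65 probes. Ppp1r15a and Sel1l had no probe under those names. The members were divided by role into 8 stress sensors and transcription factors, 3 feedback genes, 13 genes of ER folding and quality control and 14 ATF4 targets.

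When unfolded proteins build up in the ER, the sensors PERK (Eif2ak3), IRE1 (Ern1) and ATF6 start the unfolded protein response. ATF6 and spliced XBP1 raise chaperones and degradation factors of the ER. PERK, and the amino acid sensor GCN2 (Eif2ak4), slow protein synthesis by phosphorylating the initiation factor eIF2, which favours translation of ATF4, a transcription factor for amino acid synthesis, amino acid transport and tRNA charging. Much of the regulation of ATF4, XBP1 and ATF6 acts on translation, splicing or cleavage, which an expression array does not read.

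The study compared mice that lack PKGI (KO), a kinase switched on by cGMP and the product of Prkg1, with wild type (WT) mice, all on the C57BL/6N background. One two-colour array set untreated brown adipose tissue (BAT) of a KO mouse, in Cy5, against BAT of its WT littermate, in Cy3. The other set brown adipocytes grown in vitro from preadipocytes of a KO mouse, in Cy3, against those of its WT littermate, in Cy5. Age, the deleted part of Prkg1 and the number of cultures are not given in the sources used here. With 1 array per comparison there was no replicate, no test and no p-value, and for any one gene a dye effect and a genotype effect cannot be told apart. All ratios are log2 of KO over WT after normalisation within the array, and a gene was counted as higher or lower in KO at 1.5-fold or more (0.58 in size on the log2 scale).

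Probes printed repeatedly on one array had a pooled SD of 0.098 (BAT array) and 0.090 (adipocyte array) on the log2 scale, and the median SD between different probes of a gene was 0.15 and 0.14. These SDs cover spotting and probe choice, not animals or cultures. The 2 Prkg1 probes detected in both dyes read lower in KO, with log2 ratios of -1.29 and -1.22 on the BAT array and -0.94 and -2.31 on the adipocyte array. Another kept probe, well above background in KO only, gave 0.01 in BAT and 0.17 in adipocytes. The Prkg1 means over kept probes were -0.84 and -1.03. Under 9 other ways of processing they ran from -1.29 to -0.07 in BAT and from -2.31 to -0.79 in adipocytes. In BAT the fat genes of the label were bright in both channels: Ucp1, the uncoupling protein of brown fat, had 44504 in KO and 158869 in WT, and Adipoq had 76817 in KO and 45157 in WT, and of 11 such markers 4 were at least 1.5-fold higher in KO and 3 lower. All 15 skeletal muscle markers were at least 2-fold lower in KO BAT (median -2.66, from -3.31 to -1.35), none of the 11 macrophage markers kept and none of the 8 fibroblast markers passed 1.5-fold, and 4 of 8 smooth muscle markers were lower (median -0.56). In KO adipocytes all 12 adipocyte markers kept were at least 2-fold lower (median -3.48, from -5.67 to -2.15, with Fabp4 at 1625 in KO and 77484 in WT), all 11 macrophage markers were lower (median -1.76), 7 of 8 smooth muscle markers were higher (median 1.63) and 0 of 8 fibroblast markers passed 1.5-fold. The RNAs of a pair also differed in sex-linked transcripts: on the BAT array Xist stood at 4.41 with all 4 Y-linked genes measured lower in KO, while on the adipocyte array Xist stood at -3.36 and the same 4 genes lay between -0.12 and 0.61. The WT adipocyte RNA carried both kinds of transcript, with Xist at 1474 and Eif2s3y, a Y-linked gene, at 8607, against 144 and 7936 in KO adipocytes. Whether the WT adipocyte RNA came from several animals was not tested. The part of the cell type and sex-linked differences in the values below was not tested either. In bulk RNA fewer cells of a type and less RNA per cell cannot be told apart.

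The promoters of 5 members are shown first, chosen by their BAT ratios or their motifs. Chac1 and Trib3 were the members furthest above equality in BAT. Asns and Hspa5 were lower there, and the window of Herpud1 holds motifs of both branches. Each runs 5′ to 3′ along its gene, from 250 bases before to 50 after the RefSeq start (build GRCm38.p6). Chac1 is chr2:119350992-119351291, plus strand, Trib3 is chr2:152344011-152344310, minus strand, Asns is chr6:7693160-7693459, minus strand, Hspa5 is chr2:34771840-34772139, plus strand, and Herpud1 is chr8:94386179-94386478, plus strand. Capitals mark matches to the 3 motifs described after the sequences.
Chac1: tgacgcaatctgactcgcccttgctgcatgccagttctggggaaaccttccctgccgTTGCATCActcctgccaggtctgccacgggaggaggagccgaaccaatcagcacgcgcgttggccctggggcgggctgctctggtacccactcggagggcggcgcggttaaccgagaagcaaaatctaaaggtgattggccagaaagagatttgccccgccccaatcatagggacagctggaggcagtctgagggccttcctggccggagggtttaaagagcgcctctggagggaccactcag
Trib3: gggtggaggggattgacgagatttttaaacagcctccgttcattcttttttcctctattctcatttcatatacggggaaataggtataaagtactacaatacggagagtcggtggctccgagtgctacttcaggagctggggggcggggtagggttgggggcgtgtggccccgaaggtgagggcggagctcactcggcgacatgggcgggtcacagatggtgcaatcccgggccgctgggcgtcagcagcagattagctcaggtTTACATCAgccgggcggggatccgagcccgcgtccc
Asns: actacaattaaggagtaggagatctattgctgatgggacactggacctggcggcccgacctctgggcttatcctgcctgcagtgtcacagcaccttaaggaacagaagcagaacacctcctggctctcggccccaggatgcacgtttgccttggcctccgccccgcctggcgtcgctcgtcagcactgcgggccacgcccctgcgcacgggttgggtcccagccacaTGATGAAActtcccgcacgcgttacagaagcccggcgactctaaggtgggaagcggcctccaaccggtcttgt
Hspa5: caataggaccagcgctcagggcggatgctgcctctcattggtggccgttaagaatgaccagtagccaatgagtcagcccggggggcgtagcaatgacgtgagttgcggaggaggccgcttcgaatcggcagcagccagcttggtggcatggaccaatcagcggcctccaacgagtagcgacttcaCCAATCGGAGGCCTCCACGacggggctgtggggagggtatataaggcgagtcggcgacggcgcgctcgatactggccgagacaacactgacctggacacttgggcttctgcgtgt
Herpud1: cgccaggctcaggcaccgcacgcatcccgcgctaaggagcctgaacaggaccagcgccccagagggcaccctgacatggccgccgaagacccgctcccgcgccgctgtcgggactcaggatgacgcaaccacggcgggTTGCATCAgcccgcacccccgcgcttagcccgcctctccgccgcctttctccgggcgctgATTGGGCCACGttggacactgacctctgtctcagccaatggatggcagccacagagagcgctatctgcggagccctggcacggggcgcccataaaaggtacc

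The motifs were searched on both strands in the same window of 27025 genes, and 34 of the 40 members had a window. The C/EBP-ATF response element that ATF4 is known to bind (TGATGNAA) occurred in 6 of the 34 members, against 4.51% of all genes. Those 6 were Aars, Asns, Chac1 and Slc7a11 among 11 ATF4 targets, Herpud1 among 13 folding genes and Trib3 among 3 feedback genes. The match lay 193 to 186 bases before the start of Chac1 and 23 to 16 bases before that of Asns, and just after the start of Trib3. The ER stress response element (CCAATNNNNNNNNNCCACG), known from ATF6 and XBP1 targets, occurred in 6 members, against 0.137% of genes: Canx, Creld2, Hsp90b1, Hspa5, Pdia6 and Syvn1, all of them folding genes. Its second form, ATTGG and CCACG with 1 base between them, occurred in Herpud1, against 0.0444% of genes. Both forms end in CCACG, and no match of one overlapped a match of another motif. A match describes letters in a window and not a bound site. Psat1 and Ddit4, which passed 1.5-fold in BAT, had a window but no match. Whether matches go with the ratios was not tested.

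In BAT the module had no common direction. Of 37 members measured, 3 were at least 1.5-fold higher in KO (Chac1, Trib3 and Ddit4) and 3 were lower (Psat1, Asns and Hspa5), where 4.24% of 20571 genes were higher and 7.3% lower. The background moves with the processing: with outlier spots kept 2 members were higher and 2 lower, beside 1.19% and 1.48% of all genes, and in the Feature Extraction ratio 2 were higher and 3 lower, beside 20.8% and 11.8%. So whether the members' share lies above or below that of all genes depends on the setting. In the reported values only Chac1 passed 2-fold, where 0.967% of all genes were 2-fold higher and 2.47% lower. The median of the members was -0.08, with 14 above 0 and 23 below, beside a median of 0.02 over all genes, and it was 0.00 with outlier spots kept. Without loess, which removes the dependence of the dye ratio on brightness, the members' median was 0.37 beside 0.21 over all genes, with 8 members higher and 0 lower, so the sign of this median follows the scaling.

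In adipocytes too the members stayed close to equality. One of 38 members was at least 1.5-fold higher in KO (Chac1) and 1 was lower (Ppp1r15b), where 7.64% of 19478 genes were higher and 9.08% lower. No member passed 2-fold, where 2.15% of genes were 2-fold higher and 3.81% lower. The median was 0.05, with 22 members above 0 and 16 below, beside -0.02 over all genes, and it was -0.01 when only the brightest probe of a gene was used. Without loess it was -0.33 beside -0.23, with 0 higher and 8 lower. The members' shares past 1.5-fold on this array were below those of all genes in both directions.

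**Figure D1:**
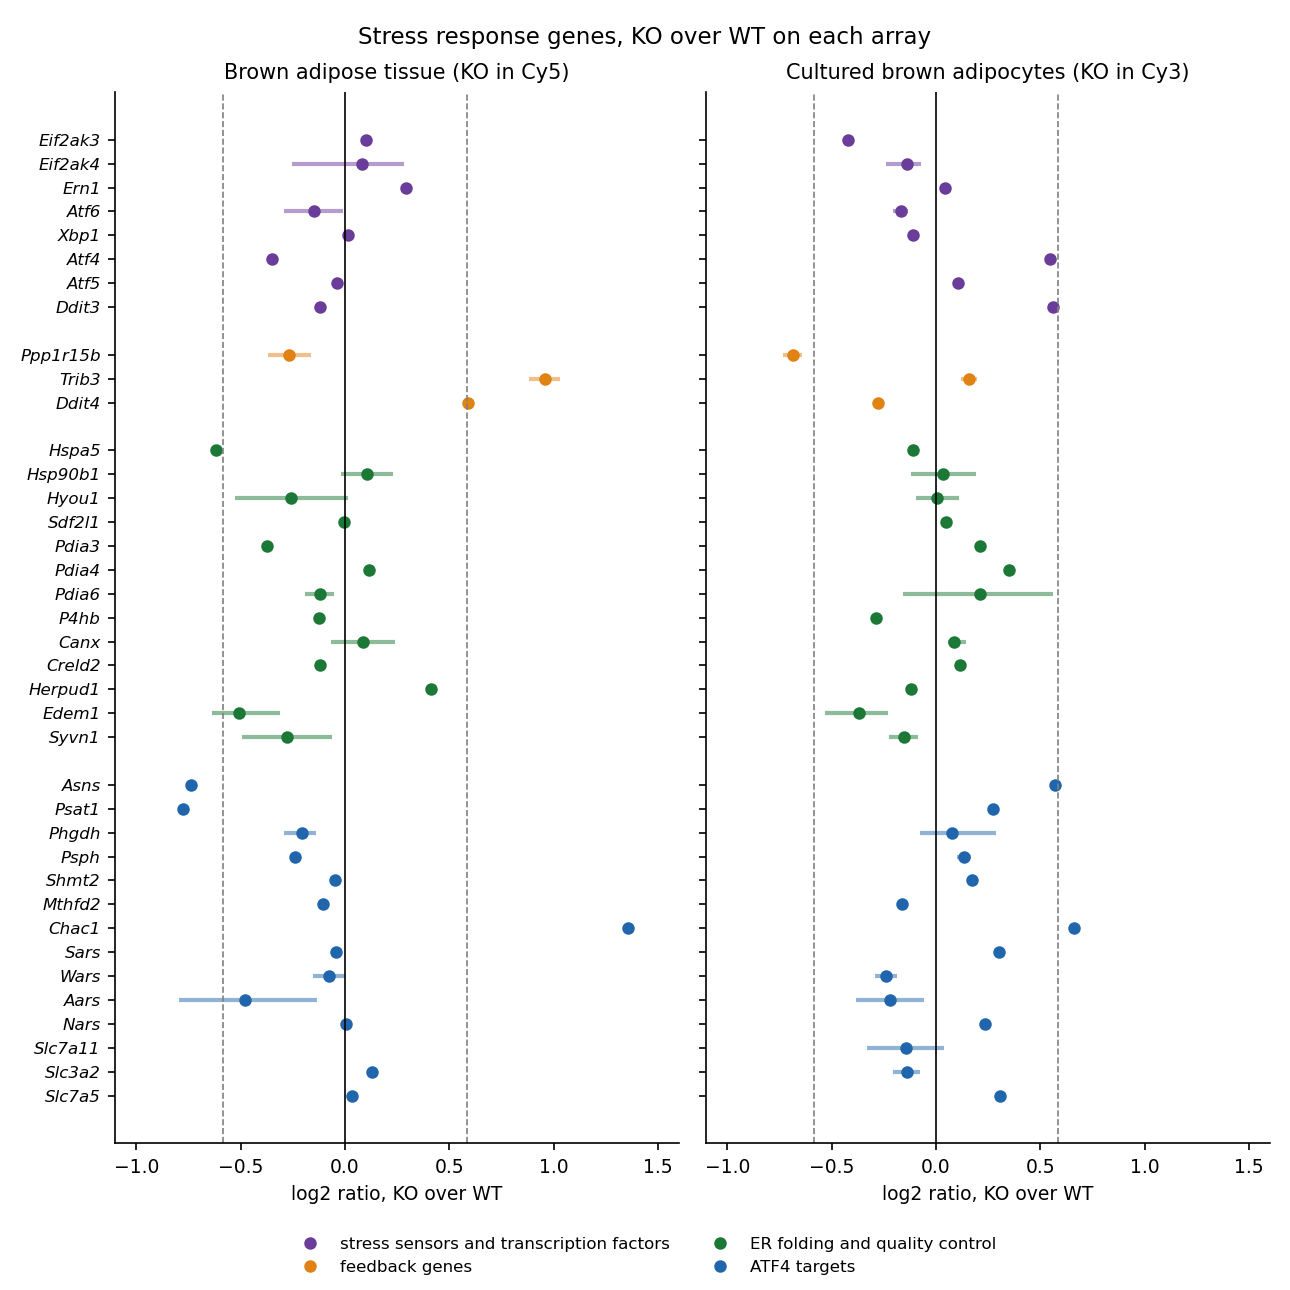
Log2 ratio of KO over WT for the 38 members on the BAT array (left) and the adipocyte array (right), grouped by role. Points are the mean over a gene's kept probes, bars run from its lowest to its highest probe, and dashed lines mark 1.5-fold; most members lie between the dashed lines on both arrays.

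Among the sensors, Eif2ak3 (PERK) had 660 in KO BAT and 616 in WT BAT, a log2 ratio of 0.10. In adipocytes it had 1505 in KO and 2012 in WT, a ratio of -0.42. Intensities are in arbitrary units of the array, and are compared between KO and WT of one array only, not between genes or arrays. Eif2ak4 (GCN2) had ratios of 0.08 in BAT and -0.14 in adipocytes, and its 3 probes ran from -0.26 to 0.28 in BAT. Ern1 (IRE1) had 220 in KO BAT and 179 in WT BAT (0.29), and 222 in KO and 216 in WT adipocytes (0.04). Atf6 was close to equal on both arrays, at -0.15 and -0.17, as was total Xbp1, at 0.01 and -0.11. No sensor passed 1.5-fold.

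Atf4 itself lay on opposite sides of equality on the 2 arrays without passing 1.5-fold on either. It had 1095 in KO BAT and 1396 in WT BAT, a log2 ratio of -0.35. In adipocytes it had 14936 in KO and 10212 in WT, a ratio of 0.55. Ddit3 (CHOP), the factor downstream of ATF4 linked to cell death, had 787 in KO BAT and 855 in WT BAT (-0.12), against 7565 in KO and 5132 in WT adipocytes (0.56). Both adipocyte ratios fell just short of the threshold, and Ddit3 passed it in the Feature Extraction ratio, at 0.61. Without loess Atf4 was at 0.18 in BAT and 0.14 in adipocytes, and Ddit3 at 0.37 and 0.15, so the opposite signs of the 2 arrays were absent there. Atf5, a relative of ATF4 that is also controlled through translation, had ratios of -0.04 and 0.11.

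The feedback genes had a median of 0.59 in BAT and -0.28 in adipocytes, over 3 genes. Trib3, a pseudokinase induced by ATF4 that restrains ATF4 and AKT, was 1.94-fold higher in KO BAT. It had 2247 in KO and 1157 in WT, a log2 ratio of 0.96, and its 2 probes gave 0.88 and 1.03. In BAT 1.09% of all genes had a higher ratio than Trib3. In adipocytes Trib3 had 3366 in KO and 3019 in WT, a ratio of 0.16. Its BAT difference stayed past 1.5-fold in all 9 alternative ways of processing, from 0.72 to 1.49.

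Ddit4 (REDD1), an inhibitor of mTORC1 that is induced by several stresses, had 62663 in KO BAT and 41597 in WT BAT, a log2 ratio of 0.59. That sits on the threshold, and 5 of 9 alternatives kept it past 1.5-fold, with values from 0.45 to 1.38. In adipocytes Ddit4 had 14018 in KO and 17001 in WT, a ratio of -0.28. Ppp1r15b (CReP), the constitutive partner of the phosphatase that dephosphorylates eIF2, had 762 in KO BAT and 917 in WT BAT (-0.27). In adipocytes it was 1.61-fold lower in KO, with 1483 in KO and 2386 in WT, a ratio of -0.69, and its probes gave -0.73 and -0.64. All 9 alternatives kept that call, from -1.08 to -0.69. Ppp1r15a (GADD34), its inducible counterpart, was reached only through RefSeq naming of 1 probe, with 681 in KO and 574 in WT BAT (0.25) and 2231 in KO and 2520 in WT adipocytes (-0.18).

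**Figure D2:**
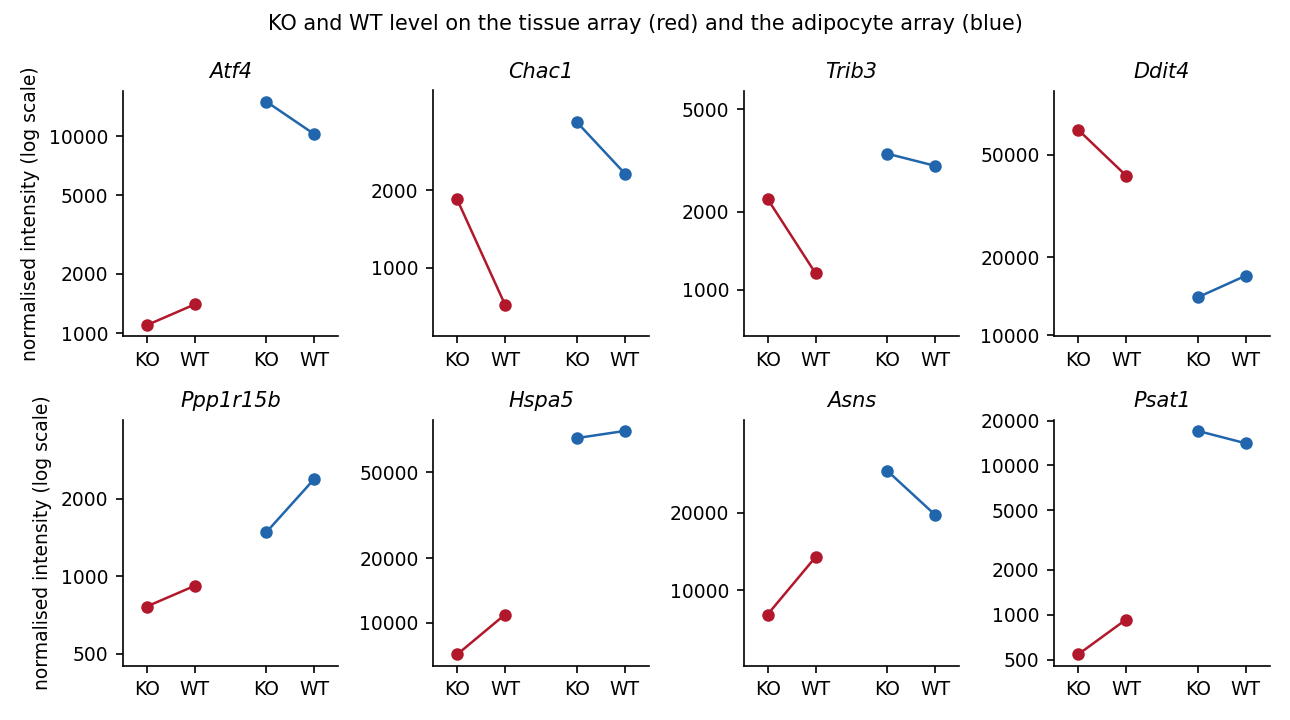
Normalised intensity (log axis, arbitrary units) in KO and in WT on the BAT array (red) and the adipocyte array (blue) for Atf4 and the 7 members that passed 1.5-fold on at least 1 array. Each point is 1 RNA sample; Chac1 is higher in KO on both arrays, and Asns and Psat1 slope in opposite directions on the 2 arrays.

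The ER folding and quality control genes did not all lie on one side of equality in BAT, where the median of the 13 measured was -0.12 with 4 above 0 and 9 below. Hspa5 (BiP), the main ER chaperone and a common readout of ER stress, was the only one past 1.5-fold. It had 7126 in KO BAT and 10928 in WT BAT, a log2 ratio of -0.62 from 1 probe. Its call did not hold in 3 of 9 alternatives, with -0.55 in the Feature Extraction ratio and in the deposited table and 0.02 without loess. In adipocytes Hspa5 was bright in both samples, with 72223 in KO and 77957 in WT, and the ratio was -0.11.

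None of the other chaperones and disulphide isomerases passed 1.5-fold. Hsp90b1 (GRP94) had 12059 in KO BAT and 11218 in WT BAT (0.10), and 78301 in KO and 76445 in WT adipocytes (0.03). Hyou1, a co-chaperone of BiP, had -0.26 in BAT as the mean of 2 probes. The probe detected in both BAT channels gave -0.53. The other, at 0.01, was not well above background in WT, yet it is part of the mean that enters the medians and counts. In adipocytes Hyou1 had 0.01. Sdf2l1, another partner of BiP, had 0.00 and 0.05, and the lectin chaperone Canx had 0.09 on both arrays. Among the isomerases, Pdia3 had 3944 in KO BAT and 5113 in WT BAT (-0.37), against 28448 in KO and 24555 in WT adipocytes (0.21). Pdia4 had ratios of 0.11 in BAT and 0.35 in adipocytes, P4hb -0.12 and -0.29, and Creld2 -0.12 and 0.11. The 4 probes of Pdia6 agreed in BAT, between -0.19 and -0.05 around a mean of -0.12, but spread from -0.16 to 0.56 in adipocytes around a mean of 0.21.

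The genes that clear misfolded proteins from the ER were split in BAT. Herpud1, a scaffold of the degradation complex whose promoter is shown above, had 16298 in KO BAT and 12259 in WT BAT, a log2 ratio of 0.41. Edem1, which hands misfolded glycoproteins to degradation, had 550 in KO BAT and 782 in WT BAT, a ratio of -0.51, and its 3 probes lay between -0.64 and -0.31. Syvn1 (HRD1), the ubiquitin ligase of the complex, had -0.28 as the mean of 2 probes, of which the one detected in both channels gave -0.49 and the other was not well above background in WT. In adipocytes all 3 were below 0, with Edem1 at -0.37, Syvn1 at -0.15 (1 of its 2 probes too dim in KO) and Herpud1 at -0.12. None of these passed 1.5-fold. Sel1l, the partner of Syvn1, was reached only through RefSeq naming of 3 probes, at -0.15 in BAT and -0.33 in adipocytes. Over all 13 folding genes the adipocyte median was 0.03, with 8 above 0 and 5 below, and it was -0.10 with the brightest probe of each gene and -0.34 without loess.

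The ATF4 targets contained both the member furthest above and the member furthest below equality in BAT. Chac1, an enzyme that breaks down glutathione and is strongly induced through ATF4, was 2.56-fold higher in KO BAT, with 1841 in KO and 718 in WT, a log2 ratio of 1.36. In BAT 0.384% of all genes had a higher ratio. In adipocytes Chac1 was 1.58-fold higher in KO, with 3667 in KO and 2318 in WT, a ratio of 0.66. Chac1 has 1 probe, and it read higher in KO with KO in Cy5 on one array and in Cy3 on the other. The 2 arrays held different materials and are not a dye swap, so a dye effect was not tested. Over the alternatives its BAT ratio ran from 0.83, with outlier spots kept, to 1.88, always past 1.5-fold. Its adipocyte ratio ran from 0.24, without loess, to 0.68, and passed in 8 of 9.

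An enzyme of asparagine synthesis and one of serine synthesis were lower in KO BAT. Asns, asparagine synthetase, had 8059 in KO BAT and 13462 in WT BAT, a log2 ratio of -0.74. Psat1, the aminotransferase of serine synthesis, had 541 in KO BAT and 927 in WT BAT, a ratio of -0.78. The other enzymes of that route did not pass 1.5-fold, with Phgdh, its first enzyme, at -0.21 and Psph, its last, at -0.24, and without loess both were above 0, at 0.31 and 0.29. Asns lost its call in 1 of 9 alternatives, with -0.09 without loess. Psat1 lost it in 2, with -0.30 without loess and -0.25 with outlier spots kept.

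In adipocytes the same 4 enzymes were all above 0. Asns had 29084 in KO and 19603 in WT, a log2 ratio of 0.57, just short of 1.5-fold, and passed with a normexp offset of 0, at 0.59. Psat1 had 17038 in KO and 14074 in WT, a ratio of 0.28, while Psph had 0.13 and Phgdh 0.08. The ratios of Psph and Phgdh are no larger than the median SD between probes of a gene on that array. Without loess Asns was at 0.14, and Psat1 (-0.14), Psph (-0.27) and Phgdh (-0.34) were below 0.

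The mitochondrial one-carbon enzymes, which use serine, were close to equal. Shmt2 had ratios of -0.05 in BAT and 0.17 in adipocytes. Mthfd2 was dim in BAT, with 136 in KO and 146 in WT (-0.11), and had 6847 in KO and 7671 in WT adipocytes (-0.16). The tRNA synthetases did not share a direction. Aars had -0.48 in BAT from 3 probes between -0.80 and -0.13, and -0.22 in adipocytes. Over the 9 alternatives its BAT ratio ran from -0.70 to -0.08 and passed 1.5-fold in 3. In adipocytes 1 of its 5 probes was not well above background in KO. Wars had -0.08 and -0.24, Sars -0.04 and 0.30, and Nars 0.00 and 0.23.

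The amino acid transporters also stayed within 1.5-fold. Slc7a5, the large neutral amino acid transporter LAT1, had 280 in KO BAT and 273 in WT BAT (0.03), and 2949 in KO and 2384 in WT adipocytes (0.31). Slc3a2, the heavy chain that carries it to the membrane, had 0.13 in BAT and -0.14 in adipocytes. Slc7a11, the cystine importer, was not well above background in either BAT channel on any of its 4 probes, so no ratio is given there. In adipocytes it was dim, with 175 in KO and 194 in WT (-0.14). Over the ATF4 targets the median was -0.08 in BAT (13 measured, 4 above 0, 9 below, 1 higher and 2 lower past 1.5-fold) and 0.15 in adipocytes (14 measured, 9 above 0, 5 below, 1 higher and 0 lower). Without loess these medians were 0.35 in BAT and -0.22 in adipocytes, so both signs turned. The counts depend on the grouping. Trib3, also induced by ATF4, and Ddit4 were placed with the feedback genes, so their BAT ratios of 0.96 and 0.59 are not among the ATF4 targets.

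**Figure D3:**
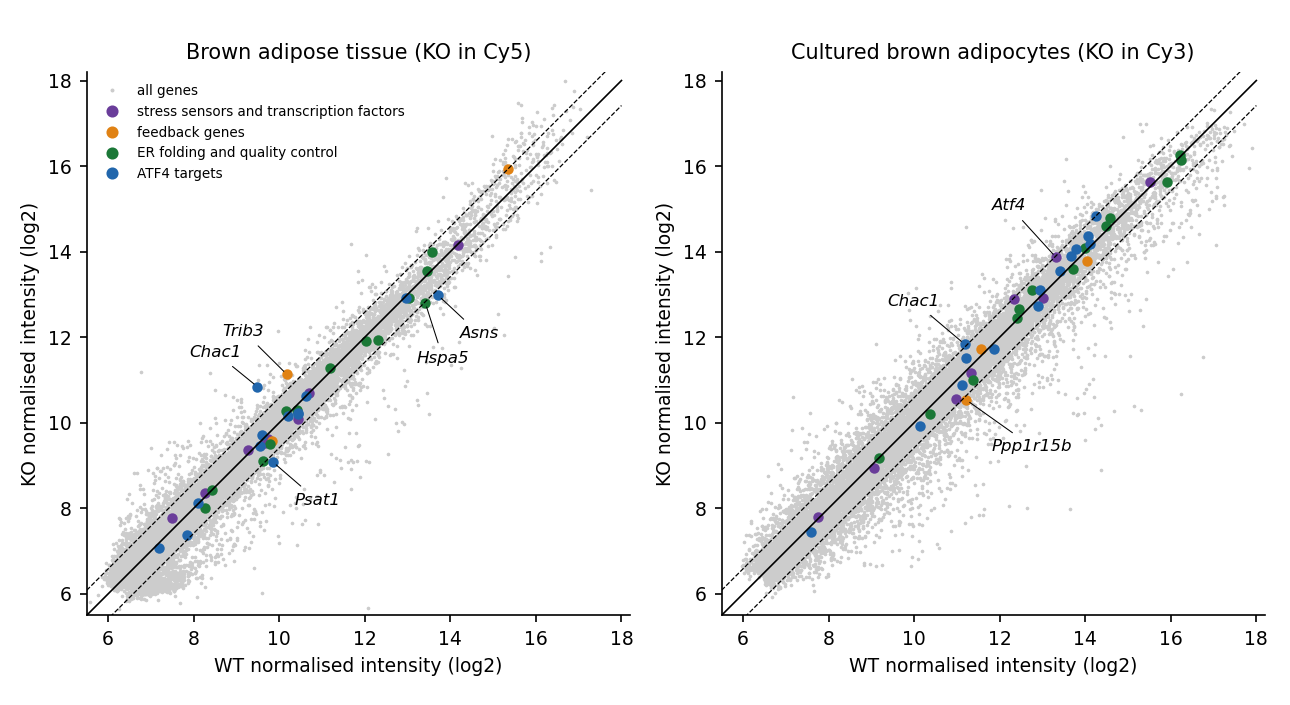
Normalised intensity in KO (vertical, log2) against WT (horizontal, log2) for all genes kept (grey) and the members (coloured by role) on the BAT array (left) and the adipocyte array (right). The solid line marks equality and dashed lines 1.5-fold; Chac1 and Trib3 lie above the upper dashed line in BAT, and Psat1, Asns and Hspa5 on or below the lower one.

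Set side by side, the arrays gave 37 members a value on each. There were 8 members above 0 on both, 9 below 0 on both, 6 above 0 in BAT and below 0 in adipocytes, and 14 the other way round. Pearson's r over the 37 members was 0.12 and Spearman's rho 0.03, against -0.01 and 0.00 over the 18134 genes measured on both, as descriptions across genes of 2 arrays. One member, Chac1, passed 1.5-fold on both arrays in one direction, and 0 passed in opposite directions, while among all genes 255 passed in one direction and 251 in opposite directions. The 14 members below 0 in BAT and above 0 in adipocytes came from 3 roles. They were the factors Atf4, Atf5 and Ddit3, and the ATF4 targets Asns, Psat1, Phgdh, Psph, Shmt2 and Sars. The folding genes among them were Pdia3, Pdia6, Creld2, Hyou1 and Sdf2l1. None of the 14 passed 1.5-fold on both arrays. These sign counts follow the scaling: without loess 1 member was below 0 in BAT and above 0 in adipocytes and 27 the other way round, and with outlier spots kept 9 and 8. The KO dye was reversed between the arrays, the materials differ, and the RNAs of each pair differ in sex-linked transcripts. A dye effect, the source of the RNA, a difference of sex and genotype therefore cannot be told apart in these opposite signs.

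**Figure D4:**
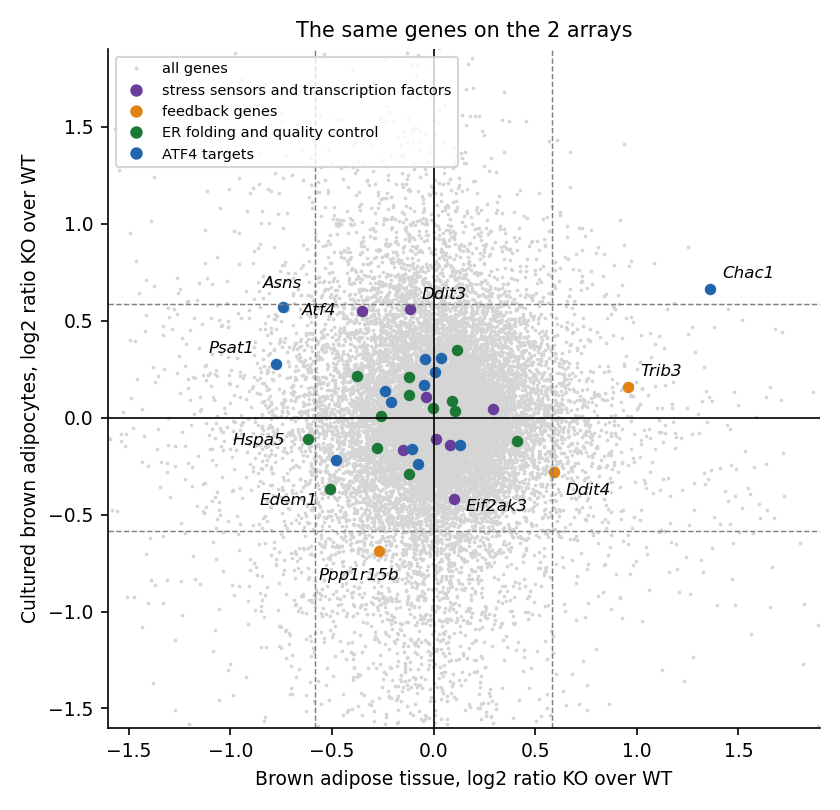
Log2 ratio of KO over WT on the adipocyte array (vertical) against the BAT array (horizontal) for members (coloured by role) and all genes (grey, points beyond the axes not drawn). Dashed lines mark 1.5-fold; Chac1 is the only member past it on both axes, and Asns, Psat1 and Atf4 lie at the upper left, a position that Psat1 and Atf4 do not keep without loess.

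Other genes of these pathways, taken from a wider list, were read in the same way. Among 49 further ER folding genes measured in BAT the median was -0.08, with 14 above 0 and 35 below, beside 10822 and 9749 of all genes. Of the 49, 2 were at least 1.5-fold higher (4.08%, beside 4.24% of all genes) and 0 lower (beside 7.3%). The higher ones were Derl3, of the ER degradation channel, with 575 in KO and 193 in WT (1.58), and Dnajc3, an inhibitor of PERK, with 2419 in KO and 1514 in WT (0.68). The BAT ratio of Derl3 dropped to 0.30 with outlier spots kept, and in adipocytes it was -0.25. The lowest was Fkbp2, a prolyl isomerase, at -0.56 in BAT and 0.05 in adipocytes. In adipocytes 52 were measured, with a median of 0.24, and 36 lay above 0 and 16 below, beside 9346 and 10132 of all genes. Of the 52, 9 were at least 1.5-fold higher (17.3%, beside 7.64% of all genes) and 0 lower (beside 9.08%). These sign counts were not followed through the alternatives. The 9 were Fkbp14, Rcn1, Sec61b, Dnajc10, Selk, Dad1, Ppib, Spcs1 and Rcn3. Fkbp14, a prolyl isomerase of the ER, had 6201 in KO and 3163 in WT (0.97). Sec61b, a subunit of the channel through which proteins enter the ER, had 70430 in KO and 41445 in WT (0.76), and the calcium-binding Rcn1 had 35719 in KO and 18608 in WT (0.94). Without loess Fkbp14 was at 0.56, below 1.5-fold, and 4.17% of all genes were higher and 22.5% lower in adipocytes. The others of the 9 were not followed through the alternatives, so how far their share depends on the scaling was not tested.

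Among further genes of the ATF4 and amino acid response, 52 measured in BAT had a median of 0.10, with 4 higher (7.69%, beside 4.24% of all genes) and 2 lower (3.85%, beside 7.3%) past 1.5-fold. Slc43a1, a neutral amino acid transporter, had 1488 in KO BAT and 519 in WT BAT (1.52), and 0.74 with outlier spots kept. Sesn2, a leucine sensor and stress gene, had 4802 in KO BAT and 2655 in WT BAT (0.86), with both of its probes above 0. In adipocytes neither was higher, with Slc43a1 at -0.47 and Sesn2 at -0.11. The lower genes in BAT were Atf3, a stress factor induced with CHOP, with 156 in KO and 264 in WT (-0.76, and -0.09 with outlier spots kept), and Got1, an aspartate aminotransferase, with 849 in KO and 1369 in WT (-0.69). Got1 had 0.00 in adipocytes.

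In adipocytes 54 of these genes had a median of -0.05, with 4 higher (7.41%, beside 7.64% of all genes) and 7 lower (12.96%, beside 9.08%). Slc7a3, a cationic amino acid transporter, had 2329 in KO and 1111 in WT (1.07), and Stc2, a secreted glycoprotein induced by ER stress, had 304 in KO and 148 in WT (1.04). The lowest was Slc1a5, the glutamine transporter ASCT2, 3.22-fold lower with 8192 in KO and 26377 in WT (-1.69). Atf3 had 2275 in KO and 5138 in WT (-1.18), and Bbc3 (PUMA), a cell death gene, had 3982 in KO and 7656 in WT (-0.94). In BAT Slc1a5 had -0.47, Slc7a3 0.10 and Bbc3 0.00, and Stc2 was not measured. These values stand beside the loss of adipocyte and macrophage transcripts in the KO adipocyte sample given above, and the part of that loss in them was not tested.

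**Figure D5:**
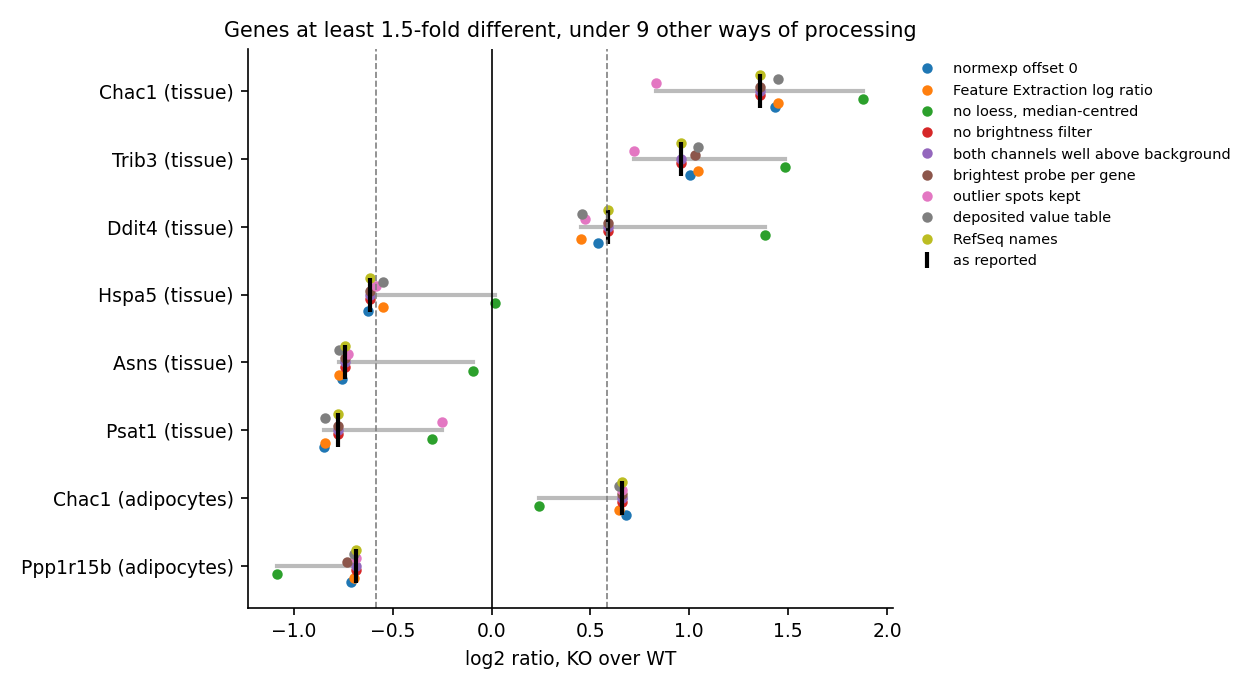
Log2 ratio of KO over WT for the members that passed 1.5-fold, as reported (black bar) and under 9 other ways of processing (points), with dashed lines at 1.5-fold. In BAT only Chac1 and Trib3 stay past the line throughout, and in adipocytes only Ppp1r15b does.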

How the data were processed

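Gene expression was measured on 2 two-colour Agilent arrays, 1 per comparison. For each dye, the deposited files give the mean signal and median local background intensity of every spot, and they give a log10 ratio of both dyes. They were written by Agilent Feature Extraction 9.5.1.1 (protocol GE2-v5_95_Feb07), per the file headers. A value table that the authors deposited holds log10 ratios, which matched the Feature Extraction ratio of KO over WT within 0.017 on the log2 scale. Its medians on the log2 scale were 0.09 (BAT) and 0.02 (adipocytes), and it was empty for 7623 and 6968 gene spots. RNA was extracted with Trizol and amplified with an Agilent low input kit, per the labels' protocols. The probes' genome build is not stated there.

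Values were computed with limma 3.58.1 in R 4.3.3 and summarised with Python 3.11.15. Of 45018 spots per array, 1639 were controls. Spots flagged as outliers in either dye (1215 gene spots in BAT, 203 in adipocytes) were dropped before normexp background correction with an offset of 50, and loess was applied within each array with controls at weight 0. The 4 saturated gene spots of the BAT array were kept. Probes detected well above background in 1 or both channels were kept (59 of 64 member probes in BAT, 65 of 65 in adipocytes), and a gene is the mean over its kept probes. Fluorescence gives no counts, so the number of arrays limits precision. Of the gene spots, 74.1% stood above background in KO BAT and 63.1% in WT BAT, and 68.1% in KO and 70.1% in WT adipocytes. Among spike-in controls, which were not used to scale, the log2 ratio of KO over WT was shifted by 0.84 (BAT) and 0.22 (adipocytes).

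Genes were named by the array files' gene name column, with RefSeq names as an alternative. The 40 members and Prkg1 are named, and of the wider lists those at least 2-fold different on either array or else the 3 highest and 3 lowest per array. Dnajc3 and the ER folding genes higher in adipocytes other than Fkbp14 were named after their values were seen. The members and lists were chosen with earlier results of these data known. A further 9 ways of processing were tried. The normalisation was also run on simulated data with a smooth dye effect, and no result given here rests on that run. Promoter sequences are from RefSeq (GRCm38.p6). Protein sequences were not used here.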

Additional observations from a re-analysis of the deposited data

How the results depend on the processing

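No paired analysis was possible because each comparison is 1 array. The 9 alternatives were run for the 3 medians and the 2 counts of members at 1.5-fold on each array, giving 90 values. Of these, 76 stayed within the spread between probes of a gene (medians) or within 1.5 times the count, 13 moved further and 1 turned its direction. A turn was counted only where the reported median was at least as large in size as that spread. The 1 turn was the adipocyte median of the ATF4 targets without loess, and other changes of sign are among the values that moved or stayed. The medians lie close to 0, and 10 had the other sign: 6 without loess, and 4 within that spread, namely module and ATF4 targets in BAT with outlier spots kept (0.0025 and 0.0016), and module and folding genes in adipocytes with the brightest probe (-0.0075 and -0.097). Without loess the BAT medians were 0.37 (module), 0.38 (folding genes) and 0.35 (ATF4 targets) beside 0.21 over all genes, with 8 members higher and 0 lower, and Hspa5 was at 0.018. Without loess the adipocyte medians were -0.33 (module), -0.34 (folding genes) and -0.22 (ATF4 targets) beside -0.23 over all genes, with 0 members higher and 8 lower. With a normexp offset of 0, 5 members were lower in BAT and 2 higher in adipocytes, and the Feature Extraction ratio and the deposited table each gave 2 higher in adipocytes. Of the 6 members past 1.5-fold in BAT, 2 passed in all 9 alternatives, and of the 2 in adipocytes, 1 did. The counts over all genes moved more: in BAT the 2-fold counts were 199 higher and 508 lower as reported, 47 and 112 with outlier spots kept, 699 and 1211 with an offset of 0, 943 and 605 without loess, and 2356 and 1375 in the Feature Extraction ratio. In adipocytes they were 419 and 742 as reported, 709 and 1041 with an offset of 0, 212 and 1485 without loess, and 1030 and 1241 in the Feature Extraction ratio. At 1.5-fold the BAT counts were 873 and 1502 as reported, 251 and 311 with outlier spots kept, 2093 and 2397 with an offset of 0, 4376 and 1262 without loess, and 4288 and 2427 in the Feature Extraction ratio, and the adipocyte counts were 1488 and 1768, 2058 and 2348 (offset 0), 813 and 4389 (no loess) and 2680 and 2516 (Feature Extraction). The cause was not tested. Probes dim in one channel limit Hyou1, Syvn1 and Aars.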
